A study of Mus musculus with 20 samples.

Results

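The genes described here encode the proteins of the cytosolic ribosome. A gene was taken when its symbol was Rpl or Rps followed by a number, with at most one closing letter a, l or x, or was Rplp0, Rplp1, Rplp2 or Rpsa. In total 83 mouse symbols fit that description, and 46 of them, of 18193 genes in all, had at least 1 probe set that the array annotation gives to a single gene. These were 22 proteins of the small subunit and 24 of the large subunit. The other 37 symbols, among them Rpl3, Rpl5, Rpl10, Rplp1 and Rps27a, had no such probe set and were not analysed here. Where a gene had several single-gene probe sets, the one with the highest mean over all arrays was used, which applied to 23 of the 46.

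The samples came from mice that carry a MYCN transgene and from wild-type mice, with 1 Affymetrix array for each of 20 samples. Extra copies of MYCN, which encodes a transcription factor of the MYC family, mark high-risk neuroblastoma, a childhood tumor that arises from precursors of sympathetic neurons. The groups were 2 tumorsphere cultures and 4 tumors of MYCN Tg hemizygotes, 2 tumors of MYCN Tg homozygotes with an Mdk KO, 4 tumors and 2 ganglion samples of MYCN Tg homozygotes, and 2 neurosphere cultures and 4 ganglion samples of wild-type mice. All transgenic groups have the label mixed 129+Ter/SvJcl as genetic background and both wild-type groups 129+Ter/SvJcl, so background and transgene cannot be told apart. The labels used here give no age, no promoter for the transgene, no cell type of origin for the spheres, and do not state whether each sample is an animal or culture of its own. The p-values therefore reflect only how much these samples vary, part of which may be technical.

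Most ribosomal proteins are made in equal numbers and bind ribosomal RNA in the nucleolus in a set order. They leave the nucleus as parts of the small or the large subunit. Their mRNAs are among the most abundant of any dividing cell, and most begin with a run of pyrimidines, the terminal oligopyrimidine (TOP) tract, through which mTOR and the RNA-binding protein Larp1 set their translation. MYC and MYCN are known to raise the transcription of genes for ribosome production. Some ribosomal proteins also act outside the ribosome: Rpl11 and Rps27l, for example, bind Mdm2, the ubiquitin ligase that degrades p53.

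Of the 46 genes, 40 matched a RefSeq promoter (GRCm38.p6, 250 bases before to 50 after each listed start), and Rpl7, Rpl8, Rps14, Rps20, Rps29 and Rps4l were not among them. The stretches around the start of 8 genes on which the results turn are shown, each with the 30 bases before the annotated start and 20 bases from the start on, read 5′ to 3′ on the plus strand, on which all 8 genes lie. They are Rpl12 at chr2:32961682-32961731, Rps9 at chr7:3704011-3704060, Rps19 at chr7:24884883-24884932, Rpl4 at chr9:64173357-64173406, Rpl38 at chr11:114668550-114668599, Rps27l at chr9:66946056-66946105, Rpl37 at chr15:5116583-5116632 and Rps15 at chr10:80292401-80292450. Capitals mark the longest unbroken run of C or T that touches the 10 bases on either side of the start. Rps19 has 3 listed starts and Rps27l 2, and for each the start with the longest run is shown, so these starts were chosen by run length.
Rpl12: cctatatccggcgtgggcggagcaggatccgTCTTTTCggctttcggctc
Rps9: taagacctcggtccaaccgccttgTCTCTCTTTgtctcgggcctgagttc
Rps19: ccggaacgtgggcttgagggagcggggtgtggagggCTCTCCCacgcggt
Rpl4: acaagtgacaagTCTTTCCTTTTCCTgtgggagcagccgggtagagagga
Rpl38: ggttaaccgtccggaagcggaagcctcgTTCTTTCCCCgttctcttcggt
Rps27l: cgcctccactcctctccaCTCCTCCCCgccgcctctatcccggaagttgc
Rpl37: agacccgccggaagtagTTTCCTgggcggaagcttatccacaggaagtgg
Rps15: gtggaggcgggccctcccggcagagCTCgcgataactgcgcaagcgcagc
Of the 8 genes, 7 had a run of at least 6 pyrimidines near the start shown, and Rps15 had a run of 3. Over all 40 matched genes, 26 (65.0%) had such a run, against 33.49% of 26985 other genes. In this and the next counts, a gene with several listed starts was counted if any of its starts had the feature. Searched on both strands, the letters CGGAAG, the core bound by ETS factors, were present in 29 (72.5%) of the 40 promoters, against 18.7% of the others. The E-box CACGTG, the site that MYC proteins bind best, was present in 4 (10%), against 8.09%, and AAGATGG, the core of the YY1 site, in 7 (17.5%), against 7.26%. CGGAAG ends with the letters AAG with which AAGATGG begins, so matches of this pair can overlap. These are matches of letters in annotated windows and say nothing of binding.

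The knocked-out gene fitted its labels: Mdk, which encodes the heparin-binding growth factor midkine, read 42.6 and 35.5 in Mdk KO tumors, against 297, 268, 269 and 271 in homozygous tumors. On 3 arrays the brightest probe sets stood apart. The intensity below which 99.9% of the probe sets of an array lie was 6989 on wild-type neurosphere 1, 9012 on wild-type ganglion 3 and 7004 on wild-type ganglion 4, and between 3686 and 5247 on the other 17 arrays. The beta-actin control probes, whose ratio of 3' to 5' signal is a sign of RNA quality and of the amplification, gave 1.96 to 2.69 in hemizygous tumors, 2.44 to 2.81 in homozygous tumors, 2.64 and 2.34 in tumorspheres, 4.68 and 4.02 in homozygous ganglia, 7.77 and 3.78 in neurospheres, and 4.36 to 9.14 in wild-type ganglia. The same ratio for Gapdh was 11.5 on wild-type neurosphere 2 and 2.56 to 4.49 on the other 19 arrays. The part of RNA quality in the results was not tested.

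The ganglia carried the markers of sympathetic neurons, and the neurospheres were nearly without them. The summed intensity of 7 markers of sympathetic neurons was 5415 and 5579 in tumorspheres, 1752 to 3032 in hemizygous tumors, 3808 and 4962 in Mdk KO tumors, 4612 to 5554 in homozygous tumors, 11525 and 13695 in homozygous ganglia, 65.1 and 133 in neurospheres, and 13672 to 25216 in wild-type ganglia. The 6 measured markers of Schwann cells and satellite glia summed to 399.5 to 873 in hemizygous tumors and 683 to 796 in homozygous tumors, against 8285 to 9936 in wild-type ganglia. Of 5 genes of cell division all 5 rose in both kinds of tumor, with sums of 7943 to 8825 in hemizygous and 7892 to 8506 in homozygous tumors, against 391 to 1120 in wild-type ganglia. Markers of glia (6 of 6), fibroblasts (6 of 6) and sympathetic neurons (6 of 7) fell in both. The part of this shift in cell types in the results was not tested, and in bulk tissue fewer cells of a type and less RNA per cell cannot be told apart.

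Most of the 46 probe sets were bright. Their mean of log2(intensity + 16), the scale of every log2 value here, was above 10 for 33 genes and below 6 for 5, namely Rps4l, Rps27, Rpl3l, Rpl39l and Rps16, and 34 lay among the brightest 5% of all genes. Brightness depends on the probes as well as on the mRNA, so levels of different genes are not compared. Rpl3l, the paralog of Rpl3 in heart and skeletal muscle, read between 1.30 and 33.2, and Rpl39l, the testis paralog of Rpl39, between 0.388 and 51.2. The probe set of Rps16 read under 1 on all 20 arrays and gives no level for that small-subunit protein. The constant of 16 makes a fold change of a dim gene too small. Rps16 was below the filter on low values, which left 45 of the 46 for testing among 15132 genes.

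Averaged over the 45 tested genes, the arrays differed by group and also within groups. The mean level was 10.61 and 10.55 in tumorspheres and 10.11, 9.9995, 10.44 and 10.37 in hemizygous tumors. It was 10.34 and 10.38 in Mdk KO tumors, 10.32, 10.43, 9.97 and 10.02 in homozygous tumors, and 10.58 and 10.46 in homozygous ganglia. Neurospheres had 10.32 and 10.22, and wild-type ganglia 10.23, 10.44, 9.69 and 9.51. Wild-type ganglia 3 and 4 were the lowest 2 of the 20 arrays, wild-type ganglion 1 lay among the tumors, and wild-type ganglion 2 lay just above the highest tumor. The same mean over all genes tested ranged only from 6.57 to 6.80.

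**Figure D1:**
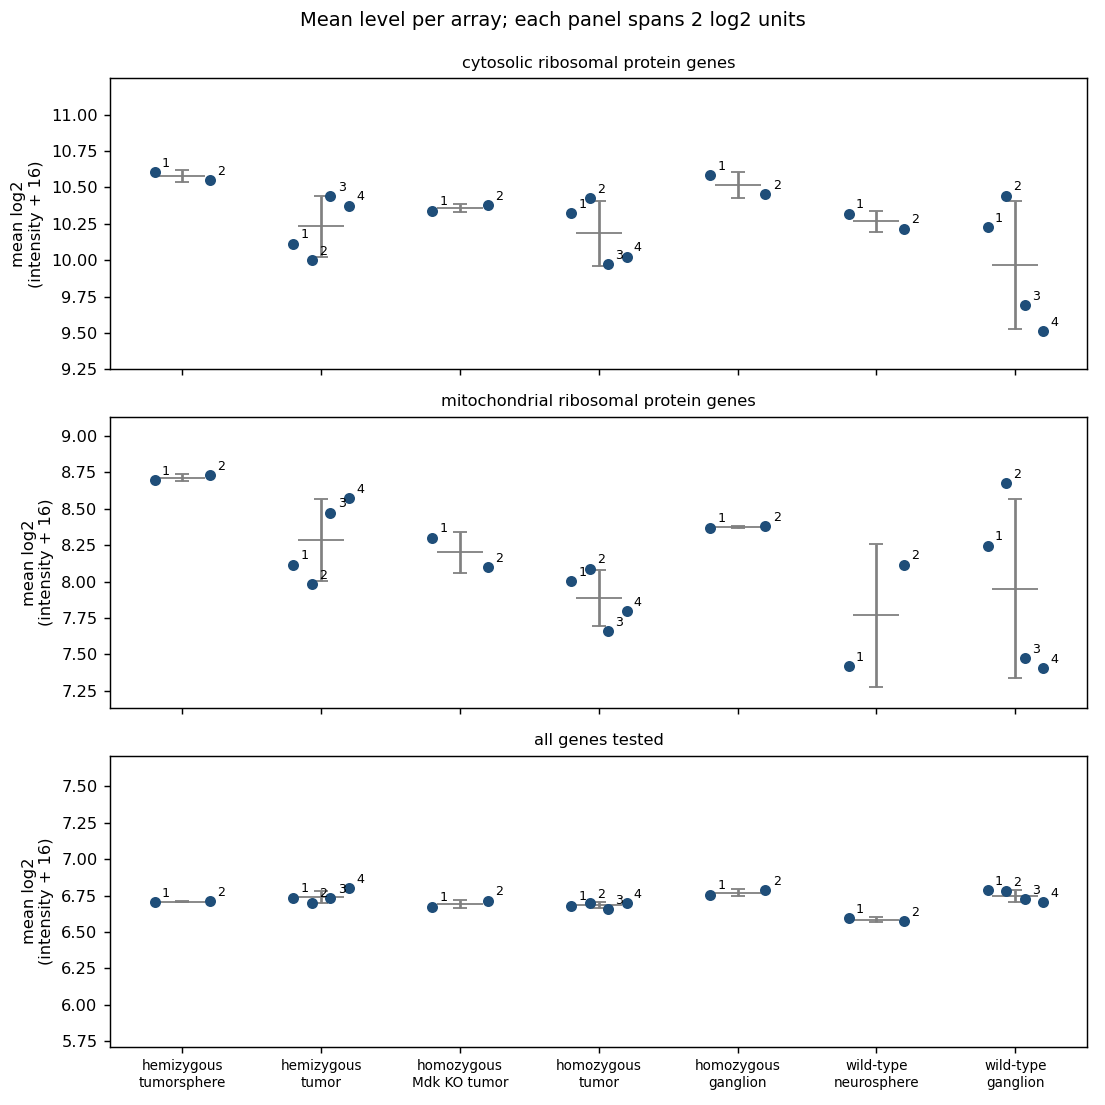
Mean log2(intensity + 16) on each array (numbered points) over the cytosolic ribosomal protein genes, over 76 mitochondrial ribosomal protein genes and over all genes tested, by group, with the group mean and SD as bars. Wild-type ganglia 3 and 4 lie below all other arrays in the top panel, at 9.69 and 9.51, while the bottom panel is nearly flat.

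As a share of the summed intensity of all probe sets, the 46 genes took 2.01% and 1.92% in tumorspheres, 1.38% to 1.86% in hemizygous tumors, 1.35% to 1.78% in homozygous tumors, 1.89% and 1.76% in homozygous ganglia, and 1.05% to 1.76% in wild-type ganglia. In wild-type ganglia the pair 3 and 4 lay lower than the pair 1 and 2 for 39 of the 45 tested genes, with a median difference of -0.76, against -0.04 over all genes tested. Homozygous tumors 3 and 4 also lay lower than 1 and 2 for 39 genes, by a median of -0.30, and hemizygous tumors 3 and 4 lay higher for 38 genes, by 0.29. The labels name no batch for these numbers. Hemizygous tumors 1 and 2, homozygous tumors 3 and 4, and wild-type ganglia 3 and 4 are consecutive in the deposited order of samples. Their mean levels over the 45 tested genes, in that order, were 10.11, 9.9995, 9.97, 10.02, 9.69 and 9.51. Every other array had 10.216 or more. The low pair of each of these groups thus lies in this run of samples. Whether the deposited order stands for a batch was not tested. Sums of some cell type markers also split the wild-type ganglia by pair. For ganglia 1, 2, 3 and 4 in that order, the 7 markers of skeletal muscle summed to 5519, 2766, 71.3 and 33.5, the 8 of macrophages to 1967, 2016, 831 and 849.8, and the 7 of sympathetic neurons to 16215, 13672, 25216 and 21723. Of the sympathetic markers, Th, Dbh, Slc6a2 and Stmn2 were higher in ganglia 3 and 4. Phox2a (625, 388, 162 and 152) and Prph (3099, 2640, 1440 and 1757) were lower there, and Chrna3 did not split by pair. Sums of fibroblast markers (14742, 17493, 16829 and 16191) did not split by pair. Col1a1, one of them, read 440.1 and 879.6 in ganglia 1 and 2 and 1974 and 2159.7 in ganglia 3 and 4. The part of these cells in the results was not tested.

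The 46 genes did not share 1 order of groups. The highest group mean was that of tumorspheres for 17 genes, of neurospheres for 13 and of homozygous ganglia for 12. The lowest was that of wild-type ganglia for 23 and of hemizygous tumors for 10. The gap between the highest and the lowest group mean was 0.40 to 0.79 for the 9 genes with a mean above 12, and 0.46 to 2.21, with a median of 1.14, for the 24 genes between 10 and 12. It was largest for Rps4l at 3.64, Rpl12 at 2.93, Rps15 at 2.21, Rps9 at 2.19 and Rps27l at 2.02.

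**Figure D2:**
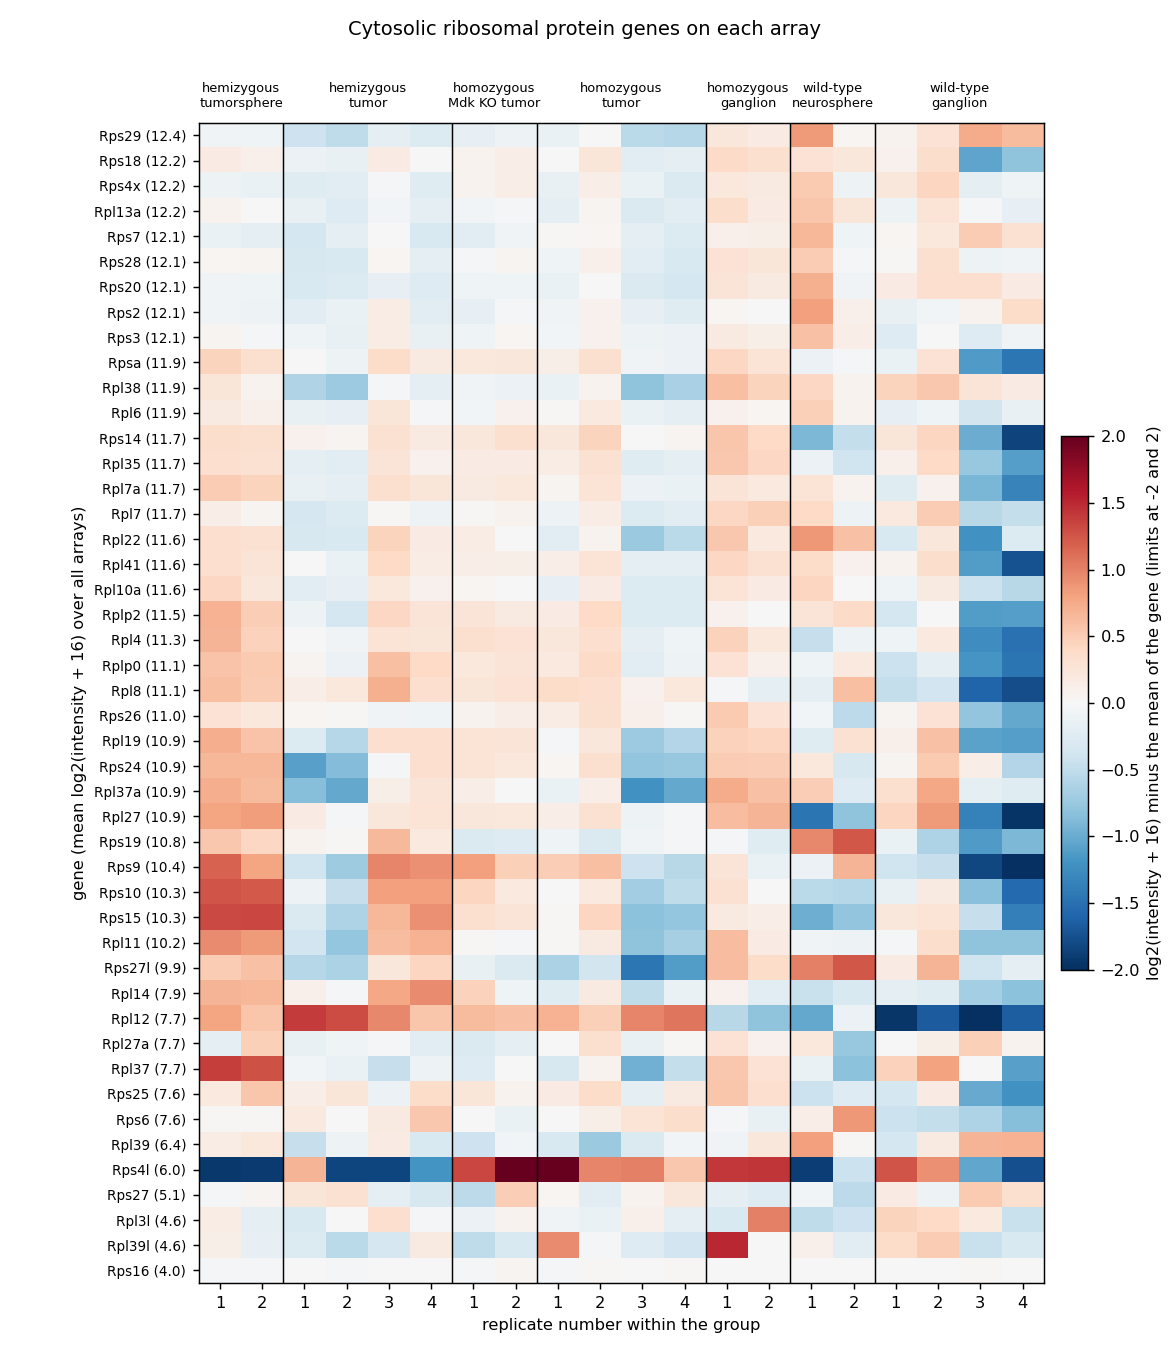
Each row is 1 of the 46 genes, ordered by brightness (mean in brackets), and each column 1 array. Colour is log2(intensity + 16) minus the mean of that gene over all 20 arrays, limited at -2 and 2. The bright genes at the top vary little, while Rpl12, Rps4l, Rps9 and Rps15 stand out lower down, and many rows are dark blue on wild-type ganglia 3 and 4.

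Tumors against wild-type ganglia asks which of these genes differ between MYCN tumors and ganglia without the transgene. In homozygous tumors 10 of the 45 tested genes rose and 5 fell, and in hemizygous tumors 13 rose and 4 fell (limma, Benjamini-Hochberg adjusted p below 0.05). Of all 15132 genes, 23.1% rose and 26.6% fell in homozygous tumors (49.8% in all), and 27% rose and 25.6% fell in hemizygous tumors (52.6% in all), so the share that rose (22.2% and 28.9%) was near the background in both. The share that fell was 11.1% and 8.89%. The median log2 fold change was 0.10 for the 45 genes and -0.12 for all genes in homozygous tumors, and 0.33 and -0.05 in hemizygous tumors. With quantile normalization the split was 19 higher and 2 lower in homozygous tumors, and 23 higher and 1 lower in hemizygous tumors. The share of all genes with quantile normalization is not given here, so this split is not set against a background.

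Rpl12, which with Rplp0 forms the base of the stalk where translation factors dock, changed most. Its intensity was 538, 508, 397 and 294 in hemizygous tumors and 327, 277, 398 and 428 in homozygous tumors, against 39.1, 50.8, 28.6 and 51.0 in wild-type ganglia. All 8 tumors lay far above the 4 ganglia. It gave a log2 difference of 2.93 (SE 0.22, adjusted p = 5.65e-09) in hemizygous and 2.68 (SE 0.22, adjusted p = 2.36e-08) in homozygous tumors, and the call held in every alternative run.

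The stalk proteins Rplp0 and Rplp2, which recruit elongation factors, rose as well. Rplp0 read 2318, 2048, 3362 and 2918 in hemizygous tumors and 2548, 2915, 1909.8 and 2069 in homozygous tumors, against 1645, 1928, 973 and 799 in wild-type ganglia. Hemizygous tumors lay above all ganglia, while homozygous tumor 3 overlapped wild-type ganglion 2. The fitted log2 difference was 1.05 (SE 0.24, adjusted p = 0.00125) in hemizygous and 0.88 (SE 0.24, adjusted p = 0.00518) in homozygous tumors. Rplp2 had 0.70 (SE 0.24, adjusted p = 0.0208) in hemizygous and 0.64 (SE 0.24, adjusted p = 0.0334) in homozygous tumors, with overlapping groups in both.

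Among other large-subunit proteins, Rpl8, which lies near the peptidyl transferase centre, read 2379.5, 2504, 3578 and 2743 in hemizygous and 2795, 2734, 2311 and 2513 in homozygous tumors, against 1559, 1668, 705 and 622 in wild-type ganglia. The tumors did not overlap the ganglia, and ganglia 3 and 4 lay far below ganglia 1 and 2. On the log2 scale the difference was 1.40 (SE 0.27, adjusted p = 0.000248) in hemizygous and 1.31 (SE 0.27, adjusted p = 0.000579) in homozygous tumors. Rpl4, which lines the exit tunnel, read 2506, 2387, 3041 and 2949 in hemizygous and 2945, 3149.9, 2198 and 2365 in homozygous tumors, against 2349, 2851, 1047 and 881 in wild-type ganglia. Wild-type ganglia 1 and 2 lay among the tumors, and only ganglia 3 and 4 lay below them. Its log2 fold change of 0.77 (SE 0.28, adjusted p = 0.0286) in hemizygous and 0.73 (SE 0.28, adjusted p = 0.0387) in homozygous tumors passed, but the value in homozygous tumors was 0.03 against wild-type ganglia 1 and 2 alone. Rpl7a rose in both (log2 fold changes of 0.66 and 0.62), and Rpl14 rose in hemizygous tumors, by 0.93 (SE 0.23, adjusted p = 0.00217).

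Among small-subunit proteins, Rps6, the substrate of S6 kinase, read 211, 181, 210.1 and 273 in hemizygous and 181, 199, 225 and 239 in homozygous tumors, against 131, 127, 113 and 93.9 in wild-type ganglia. All tumors lay above all ganglia. Its log2 fold change was 0.82 (SE 0.17, adjusted p = 0.000577) in hemizygous and 0.78 (SE 0.17, adjusted p = 0.00104) in homozygous tumors. Rps9, a protein near the mRNA entry channel, read 991, 795, 2589.9 and 2484 in hemizygous and 1855, 1997, 979 and 888 in homozygous tumors, against 995, 952, 359 and 289 in wild-type ganglia. The tumors of each genotype fell into a high and a low pair, and the low pair overlapped wild-type ganglia 1 and 2. limma put the log2 difference at 1.39 (SE 0.43, adjusted p = 0.0112) in hemizygous and 1.23 (SE 0.43, adjusted p = 0.0244) in homozygous tumors. Of its other probe sets, both dim, one gave 3.11 and 2.56 and the other the opposite sign, at -0.12 and -0.26.

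Rps19, the gene most often mutated in human Diamond-Blackfan anemia, a failure of red cell production, read 1828, 1776, 2738 and 1999 in hemizygous tumors and 1640.3, 1422, 1668 and 1721 in homozygous tumors, against 1595, 1134, 789 and 926 in wild-type ganglia. Hemizygous tumors lay above all ganglia, while homozygous tumor 2 lay below wild-type ganglion 1. Its log2 fold change was 0.93 (SE 0.19, adjusted p = 0.000543) in hemizygous and 0.58 (SE 0.19, adjusted p = 0.0189) in homozygous tumors. Rps25, needed in human cells for initiation at internal ribosome entry sites, rose by 0.76 and 0.73, and Rps10 rose in hemizygous tumors by 0.85 (SE 0.34, adjusted p = 0.0405). Rpsa, the small-subunit protein that is also called the laminin receptor, rose in hemizygous tumors by 0.71 (SE 0.27, adjusted p = 0.0365) and had 0.67 (SE 0.27, adjusted p = 0.052) in homozygous tumors, which missed the threshold. Of the 7 measured Diamond-Blackfan genes of 11 listed, 2 rose and 1 fell in hemizygous tumors, and 1 rose in homozygous tumors.

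Fewer genes fell. Rps29, a small protein of the small-subunit head, read 4126, 3891, 4846 and 4572 in hemizygous and 5057, 5571, 3806 and 3727 in homozygous tumors, against 5827, 6749, 9281 and 8606 in wild-type ganglia. All tumors lay below all ganglia, and the highest readings were those of ganglia 3 and 4. The log2 fold change was -0.78 (SE 0.20, adjusted p = 0.00244) in hemizygous and -0.74 (SE 0.20, adjusted p = 0.00408) in homozygous tumors, and -0.05 and -0.04 with quantile normalization, where both missed the threshold. Rpl38, which in mouse embryos is needed for the translation of Hox mRNAs, read 2527, 2314, 3756 and 3389 in hemizygous and 3513, 4038, 2204 and 2436 in homozygous tumors, against 5214, 5586, 4584 and 4299.5 in wild-type ganglia. Here too all tumors lay below all ganglia, and ganglia 3 and 4 lay below 1 and 2. It gave a log2 difference of -0.73 (SE 0.20, adjusted p = 0.00492) in hemizygous and -0.73 (SE 0.20, adjusted p = 0.00581) in homozygous tumors, and -0.24 and -0.29 with quantile normalization, past no threshold. In limma Rps20 fell by 0.50 (SE 0.16, adjusted p = 0.0114) on the log2 scale in hemizygous and by 0.45 (SE 0.16, adjusted p = 0.0231) in homozygous tumors. Rps7, another protein that binds Mdm2, fell in limma by 0.47 (SE 0.17, adjusted p = 0.0237) in hemizygous tumors. The signs of all 3 differences turned with quantile normalization. A second Rps7 probe set, also bright, had 0.011 in hemizygous tumors.

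Rps27l, the paralog of Rps27 that p53 induces, read 586, 703, 326 and 414 in homozygous tumors, against 1034, 1476, 691 and 801 in wild-type ganglia. Homozygous tumor 2 overlapped wild-type ganglion 3, and the other homozygous tumors lay below all ganglia. Its log2 fold change was -0.96 (SE 0.28, adjusted p = 0.0076) in homozygous tumors and -0.20 (SE 0.28, adjusted p = 0.561) in hemizygous tumors, where it missed the threshold. Its partner Rps27 was dim, at 11.8 to 26.8 in hemizygous tumors, 13.7 to 24.9 in homozygous tumors and 16.4 to 34.1 in wild-type ganglia, and did not pass in either. Rpl39 fell in homozygous tumors by 0.65 (SE 0.24, adjusted p = 0.0314) on the log2 scale. Rpl11, which with Rpl5 holds Mdm2, had log2 fold changes of 0.36 in hemizygous and 0.0038 in homozygous tumors, and the X-linked Rps4x -0.28 and -0.21; none of these passed.

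Some other genes at the bright end passed in neither contrast. Rpl13a, which in human cells also leaves the ribosome to silence inflammatory mRNAs, had log2 fold changes of -0.16 in hemizygous and -0.16 in homozygous tumors, and Rpl10a, a protein of the large-subunit stalk on the exit side, 0.20 and 0.09; none of these passed. The other 3 Rpl13a probe sets, also bright, were higher in the tumors, at 0.64, 2.06 and 1.45 in hemizygous and 0.25, 1.49 and 1.02 in homozygous tumors, so its direction depends on the probe set. Of 3 tested proteins near the ribosome but outside the naming rule, Rpl7l1 rose in both, by 1.84 and 1.45, and Rpl22l1, the paralog of Rpl22, fell in hemizygous tumors.

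**Figure D3:**
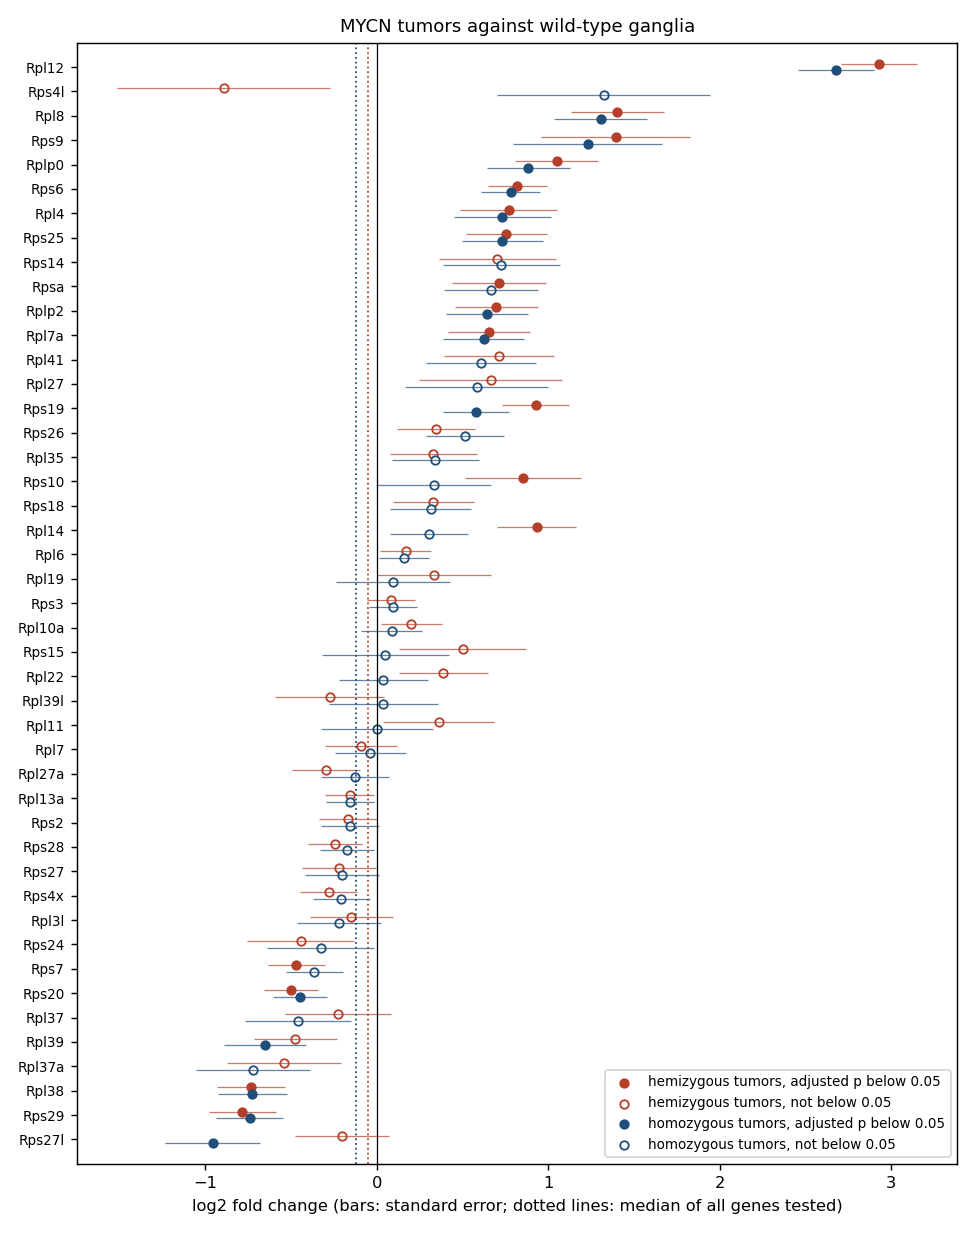
Log2 fold change of each tested gene in hemizygous (red) and homozygous (blue) tumors against wild-type ganglia, with standard errors; filled points passed the adjusted threshold, and dotted lines are the medians of all genes. Rpl12 stands at the top with 2.93 and 2.68, and Rps29, Rpl38 and Rps27l at the bottom.

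Both contrasts use the same 4 wild-type ganglia. Side by side, 10 genes rose in both (Rpl12, Rpl4, Rpl7a, Rpl8, Rplp0, Rplp2, Rps19, Rps25, Rps6 and Rps9) and 3 fell in both (Rpl38, Rps20 and Rps29). Without overlap of the groups, 6 genes were higher and 5 lower in hemizygous tumors, where 22.2% and 20.1% of all genes were, and 3 were higher and 3 lower in homozygous tumors, where 20.8% and 22.9% were.

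The counts turned on the choice of wild-type ganglia. Against ganglia 1 and 2 alone 3 genes rose and 6 fell in homozygous tumors, and 6 rose and 8 fell in hemizygous tumors, with medians of -0.22 and -0.13. Against ganglia 3 and 4 alone 20 rose and 4 fell in homozygous tumors, with a median of 0.49. In hemizygous tumors 24 rose and 5 fell, with a median of 0.74. The shares of all genes that passed with each pair are not given here, so these counts are not set against a background. In homozygous tumors 8 genes were called without wild-type ganglion 3, 9 without ganglion 4 and 23 without ganglion 2, and in hemizygous tumors 11 without wild-type ganglion 3 or hemizygous tumor 4. In homozygous tumors 7 calls were lost without wild-type ganglion 3 and without wild-type ganglion 4, namely Rps9, Rps19, Rps25, Rpl4, Rpl7a, Rpl39 and Rplp2 (adjusted p 0.053 to 0.156). Of these Rps9, Rpl4, Rpl7a, Rpl39 and Rplp2 were also lost without homozygous tumor 1 or 2 (0.0524 to 0.111), Rpl39 without tumor 3 (0.0514), Rpl4 without tumor 4 (0.0505), and Rps20 without tumor 3 or 4 (0.0609 and 0.0709). In hemizygous tumors Rpl4, Rpl7a, Rplp2, Rps10 and Rpsa were lost without wild-type ganglion 3 or 4 or hemizygous tumor 3 or 4 (0.0564 to 0.166). Rpsa was also lost without hemizygous tumor 1 (0.0515), Rps25 without wild-type ganglion 4 (0.0518), and Rps7 without hemizygous tumor 1 or 4 or wild-type ganglion 3 (0.0568 to 0.072).

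**Figure D4:**
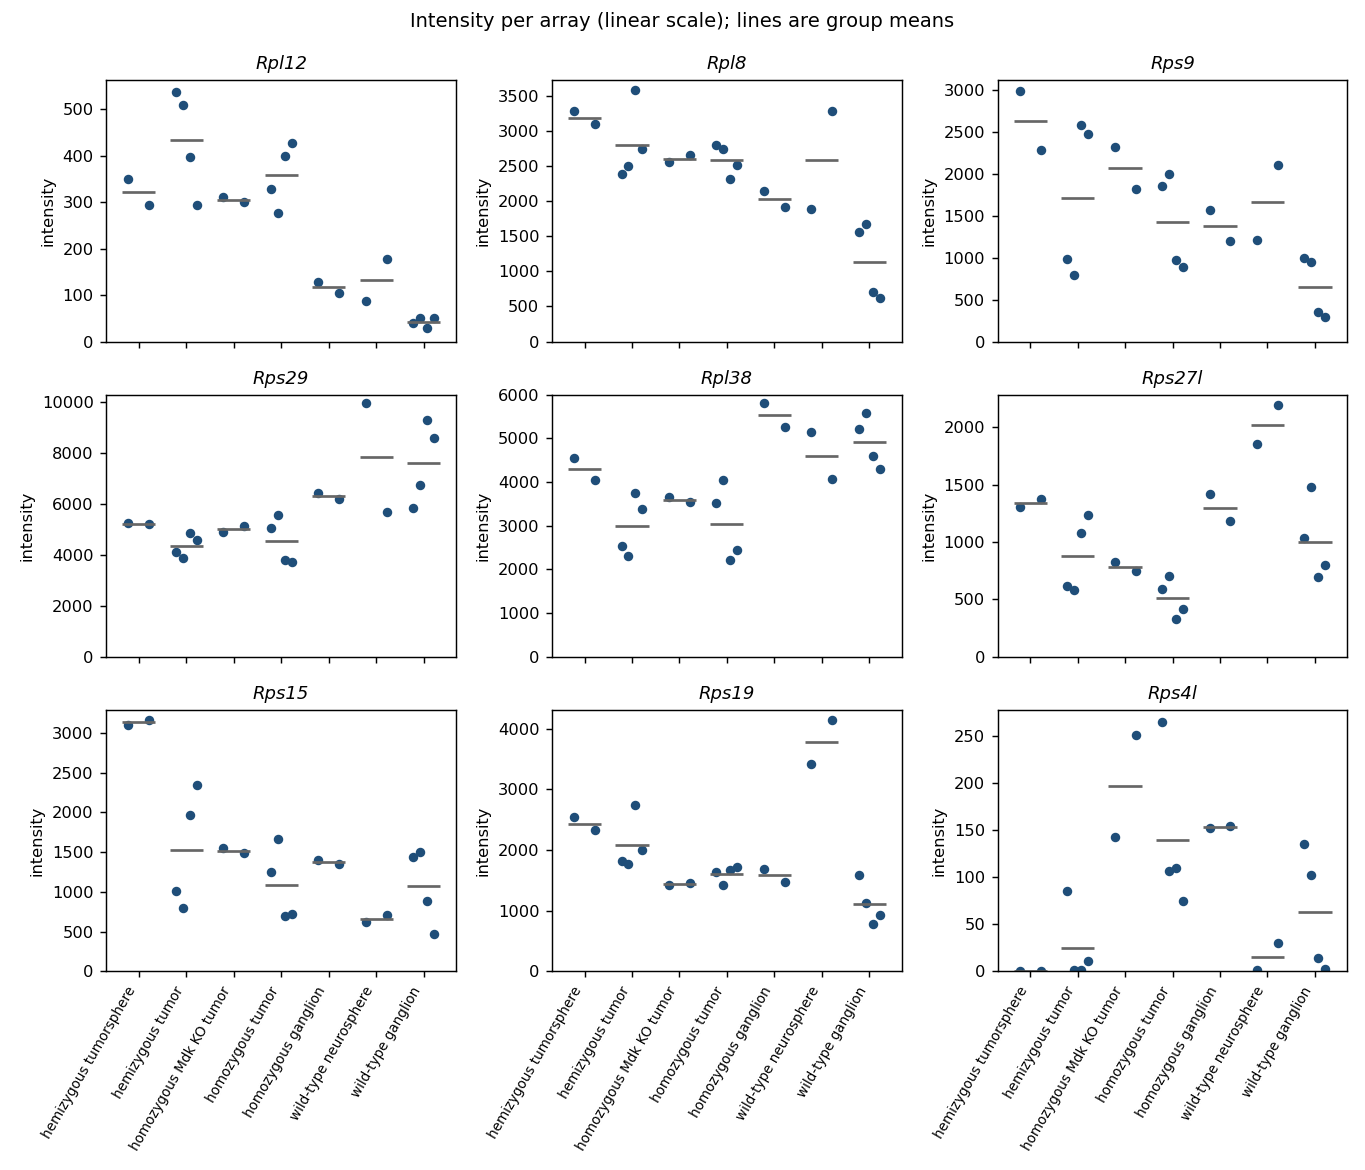
Intensity on each array (points, linear scale) and group means (lines) for 9 of the genes, groups in the same order throughout. Rpl12 is high in all tumors and tumorspheres and lowest in wild-type ganglia, Rps15 is highest in tumorspheres at 3102 and 3157, Rps19 in neurospheres at 3413 and 4148, and Rps4l reads under 1 in tumorspheres.

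Genes that build the ribosome or set the use of its mRNAs were read from named lists. Of 14 chaperones and late assembly factors of ribosomal proteins, 11 rose and 1 (Sbds) fell in hemizygous tumors, and 8 rose and 2 (Sbds and Rpf2) fell in homozygous tumors, with medians of 1.04 and 0.88. Grwd1, a chaperone of Rpl3, averaged 402 ± 20.1 in hemizygous tumors and 249 ± 31.9 in homozygous tumors, against 98.4 ± 15.5 in wild-type ganglia (SD, n = 4 each). It rose by 1.88 (SE 0.19, adjusted p = 2.5e-07) in hemizygous and 1.21 (SE 0.19, adjusted p = 4.83e-05) in homozygous tumors. Nob1, the nuclease that matures the RNA of the small subunit, rose by 2.34 (SE 0.33, adjusted p = 9.48e-06) in hemizygous and 1.81 (SE 0.33, adjusted p = 0.00017) in homozygous tumors, and Eif6, which keeps unfinished large subunits from joining, by 1.54 (SE 0.24, adjusted p = 2.79e-05) in hemizygous and 0.92 (SE 0.24, adjusted p = 0.00374) in homozygous tumors.

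Of 23 measured translation factors and other genes with TOP mRNAs, 10 rose and 2 fell in hemizygous tumors and 9 rose and 2 fell in homozygous tumors, with medians of 0.37 and 0.23. Eef2, the elongation factor that moves the ribosome along the mRNA, averaged 2805 ± 422 in hemizygous and 2779 ± 363 in homozygous tumors, against 673 ± 526 in wild-type ganglia (SD, n = 4 each). It rose by 2.46 (SE 0.45, adjusted p = 0.000161) in hemizygous and 2.46 (SE 0.45, adjusted p = 0.0002) in homozygous tumors. The 2 that fell in both were Eef1a1, the factor that brings aminoacyl-tRNA, by 0.66 (SE 0.24, adjusted p = 0.0281) in hemizygous and by 0.62 (SE 0.24, adjusted p = 0.0398) in homozygous tumors, and Vim, an intermediate filament gene of fibroblasts and glia.

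Of 10 measured regulators of TOP mRNA translation, 6 rose and none fell in hemizygous tumors, and 7 rose and none fell in homozygous tumors. Larp1 averaged 1254 ± 179.6 in hemizygous and 942 ± 245 in homozygous tumors, against 419 ± 178 in wild-type ganglia (SD, n = 4 each), at a log2 difference of 1.64 (SE 0.29, adjusted p = 9.93e-05) in hemizygous and 1.21 (SE 0.29, adjusted p = 0.00191) in homozygous tumors. Of 76 genes of the mitochondrial ribosome, 26 rose and 11 fell in hemizygous tumors, with a median of 0.43, and 9 rose and 14 fell in homozygous tumors, with a median of -0.01.

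Ganglia of homozygous mice, sampled as tissue labelled ganglion and not tumor, were compared with wild-type ganglia. The genes leaned higher: 39 of 45 had a positive log2 fold change, with a median of 0.52, against -0.03 over all genes. Only 2 rose and none fell, where 3.99% of all genes rose and 1.02% fell (5.01% in all), and 18 of the 45 (40.0%) were higher at an unadjusted p below 0.05, against 11.2% of all genes. The 2 were Rpl12 and Rps25.

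Rpl12 read 128 and 105 in homozygous ganglia, against 39.1, 50.8, 28.6 and 51.0 in wild-type ganglia. The 2 homozygous samples lay above all 4 wild-type ones and below all tumors. The fitted log2 difference was 1.20 (SE 0.27, adjusted p = 0.0136). Rps25 read 278 and 237 in homozygous ganglia, against 141, 208, 83.5 and 70.01 in wild-type ganglia, without overlap, at a log2 difference of 1.05 (SE 0.29, adjusted p = 0.0433). Rplp0 was the nearest to the threshold, at 1.01 (SE 0.30, adjusted p = 0.0562). Without overlap of the groups 14 genes were higher and 1 (Rps27) lower in homozygous ganglia, where 14% and 13.5% of all genes were. All 5 genes of cell division rose in the same comparison, with sums of 4099 and 6258 in homozygous ganglia, against 391 to 1120 in wild-type ganglia; the part of dividing cells in the result was not tested.

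This comparison rested on single samples. No gene was called without homozygous ganglion 1 or without homozygous ganglion 2, where the adjusted p was 0.275 and 0.0658 for Rpl12 and 0.445 and 0.156 for Rps25. Without wild-type ganglion 3 or 4 only Rpl12 was called and Rps25 had an adjusted p of 0.112 and 0.107, without ganglion 1 the count was 6, and without ganglion 2 it was 17. Against wild-type ganglia 1 and 2 alone none was called and the median was 0.17. Against ganglia 3 and 4 alone 26 rose, with a median of 0.97. For neither pair is the share of all genes given here.

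Homozygous tumors were then set against homozygous ganglia. The list leaned lower in the tumors, with 5 of 45 log2 fold changes positive and a median of -0.36, against -0.03 over all genes. Its mean level was 10.32, 10.43, 9.97 and 10.02 in homozygous tumors 1 to 4, against 10.58 and 10.46 in homozygous ganglia. Homozygous tumors 1 and 2 thus lay nearer to the ganglia than homozygous tumors 3 and 4 did. Rpl12 rose, by 1.48 (SE 0.27, adjusted p = 0.00112), and Rps27l, Rpl37a and Rpl38 fell, where 9.35% of all genes rose and 12.3% fell. Without overlap, 3 genes were higher and 20 lower in homozygous tumors, where 27.1% and 30.3% of all genes were. Rps27l read 586, 703, 326 and 414 in homozygous tumors, against 1417 and 1183 in homozygous ganglia, with all tumors below both ganglia and a log2 difference of -1.38 (SE 0.34, adjusted p = 0.00758). Rpl38 fell by 0.90 (SE 0.25, adjusted p = 0.0143) on the log2 scale and Rpl37a, a zinc-binding protein of the large subunit, by 1.22 (SE 0.41, adjusted p = 0.0398). With quantile normalization the split was 1 higher and 1 lower. The calls of Rps27l and Rpl38 were lost without homozygous ganglion 1 (adjusted p 0.0867 and 0.118) or 2 (0.057 and 0.0911), and that of Rpl37a without either of these or homozygous tumor 3 or 4 (0.0988 to 0.197). Rpl12 stayed called in both cases, and without ganglion 1 the dim Rpl3l was called as well (adjusted p = 0.0366), which makes 2 calls without ganglion 1 and 1 without ganglion 2.

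The Mdk KO tumors ask what the loss of midkine does in homozygous tumors. Mdk itself differed by -2.41 on the log2 scale (SE 0.29, adjusted p = 0.00167), and was the 1 gene of 15132 that passed (0.00661% fell, 0% rose). None of the 45 ribosomal protein genes passed by limma, and none did at an unadjusted p below 0.05. The median was 0.15, against 0.00 over all genes, and 36 of 45 log2 fold changes were positive. The mean level of the 45 genes was 10.34 and 10.38 in Mdk KO tumors. It was 10.32, 10.43, 9.97 and 10.02 in homozygous tumors 1 to 4. Both Mdk KO tumors thus lay between homozygous tumors 1 and 2, and above homozygous tumors 3 and 4.

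The 3 with the smallest p, none past the threshold, were Rps27l, Rpl37a and Rps24. Rps27l read 822 and 747 in Mdk KO tumors, against 586, 703, 326 and 414 in homozygous tumors. The groups did not overlap, as was so for 3 genes higher and 1 lower of the 45, where 8.13% and 8.37% of all genes were higher and lower. On the log2 scale the difference was 0.67 (SE 0.34, adjusted p = 1). Rpl37a had 0.62 (SE 0.41, adjusted p = 1) and Rps24 0.54 (SE 0.38, adjusted p = 1). The standard errors bound what 2 arrays against 4 could show, and the values do not show that the groups are alike.

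Hemizygous and homozygous tumors differ in the dose of the transgene. Of the 45 genes none rose and 1, Rps4l, fell in hemizygous tumors, where 3.46% of all genes rose and 2.74% fell (6.21% in all). The groups did not overlap for 1 gene higher and none lower in hemizygous tumors, where 11.8% and 8.78% of all genes were. The median was 0.04, against 0.06 over all genes. Rps4l, a paralog of the X-linked Rps4x, read 84.8, 1.52, 1.59 and 11.3 in hemizygous tumors, against 264, 107, 110.2 and 74.9 in homozygous tumors. Hemizygous tumors 2, 3 and 4 lay far below every homozygous tumor and hemizygous tumor 1 lay above homozygous tumor 4. limma put the log2 difference at -2.22 (SE 0.62, adjusted p = 0.0408). The call held without hemizygous tumor 1 (adjusted p = 0.0112) and was lost without any other single tumor (0.0508 to 0.14).

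Across all groups Rps4l was the most variable of the 46. It read 0.440 and 0.549 in tumorspheres, 142 and 250.4 in Mdk KO tumors, 152 and 154 in homozygous ganglia, 1.06 and 30.6 in neurospheres and 135, 102, 14.4 and 2.57 in wild-type ganglia. Tumorspheres were the lowest, samples of 1 group differed more than 10 times in hemizygous tumors, neurospheres and wild-type ganglia, and the 2 homozygous ganglia were nearly equal. Rps4x itself stayed between 3825 and 6759 on all 20 arrays.

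Between hemizygous and homozygous tumors Rpl14 differed by 0.63 (SE 0.23, adjusted p = 0.117) and Rps27l by 0.76 (SE 0.28, adjusted p = 0.117) on the log2 scale in the limma fit, and both missed the threshold. Mitochondrial ribosomal protein genes had positive values in 71 of 76, with a median of 0.41, and none passed. At an unadjusted p below 0.05 in limma 13 of the 76 were higher, where 12.5% of all genes were.

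Tumorspheres of hemizygous mice were compared with neurospheres of wild-type mice, both grown in culture, with 2 arrays each. Of the 45 genes 6 rose and none fell, where 23.5% of all genes rose and 14.9% fell, so that fewer of the genes passed in either direction than of all genes. At an unadjusted p below 0.05, 10 (22.2%) were higher and 2 (4.44%) lower, against 28.2% and 18.1% of all genes. The median was 0.30, against 0.11 over all genes. With quantile normalization the split was 7 higher and 1 lower.

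Rps15, a small-subunit protein whose tail reaches the decoding site, read 3102 and 3157 in tumorspheres, against 622 and 706 in neurospheres. Both tumorspheres lay far above both neurospheres and above every tumor. Its log2 fold change was 2.21 (SE 0.52, adjusted p = 0.00259), and a second probe set gave 2.32. Rpl27, mutated in rare human Diamond-Blackfan anemia, read 3288 and 3363 in tumorspheres, against 678 and 1067 in neurospheres, without overlap, at a log2 difference of 1.95 (SE 0.59, adjusted p = 0.0138).

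Rpl37, a small zinc-binding protein of the large subunit, read 516 and 476 in tumorspheres, against 170.3 and 99.6 in neurospheres. The tumorspheres were higher than all other 18 arrays. The log2 fold change was 1.80 (SE 0.44, adjusted p = 0.00303). Rps10, at the mRNA entry of the small subunit, read 3063 and 2999.7 in tumorspheres, against 870.1 and 857 in neurospheres, at a log2 difference of 1.79 (SE 0.48, adjusted p = 0.00589). Of its 6 probe sets, 5 gave positive values and a dim one gave -0.10.

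Rpl12 read 349 and 294 in tumorspheres, against 87.3 and 178 in neurospheres, with a log2 difference of 1.25 (SE 0.32, adjusted p = 0.0042). Rpl14, a large-subunit protein, read 369 and 363 in tumorspheres, against 159 and 177 in neurospheres, with 1.05 (SE 0.32, adjusted p = 0.015). In all 6 the groups did not overlap, which with 2 arrays each was so for 22 genes higher and 13 lower of the 45, where 39.5% and 27.3% of all genes were higher and lower.

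On the other side, Rps19 read 2548 and 2326 in tumorspheres, against 3413 and 4148 in neurospheres. The neurospheres were the highest 2 of all 20 arrays. It gave a log2 difference of -0.63 (SE 0.27, adjusted p = 0.0806), which missed the threshold. Rps2 had -0.55 (SE 0.24, adjusted p = 0.0767) and Rps27l -0.58 (SE 0.39, adjusted p = 0.262). By subunit, the median was -0.19 over 21 small-subunit genes and 0.38 over 24 large-subunit genes, with 2 and 4 that rose.

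**Figure D5:**
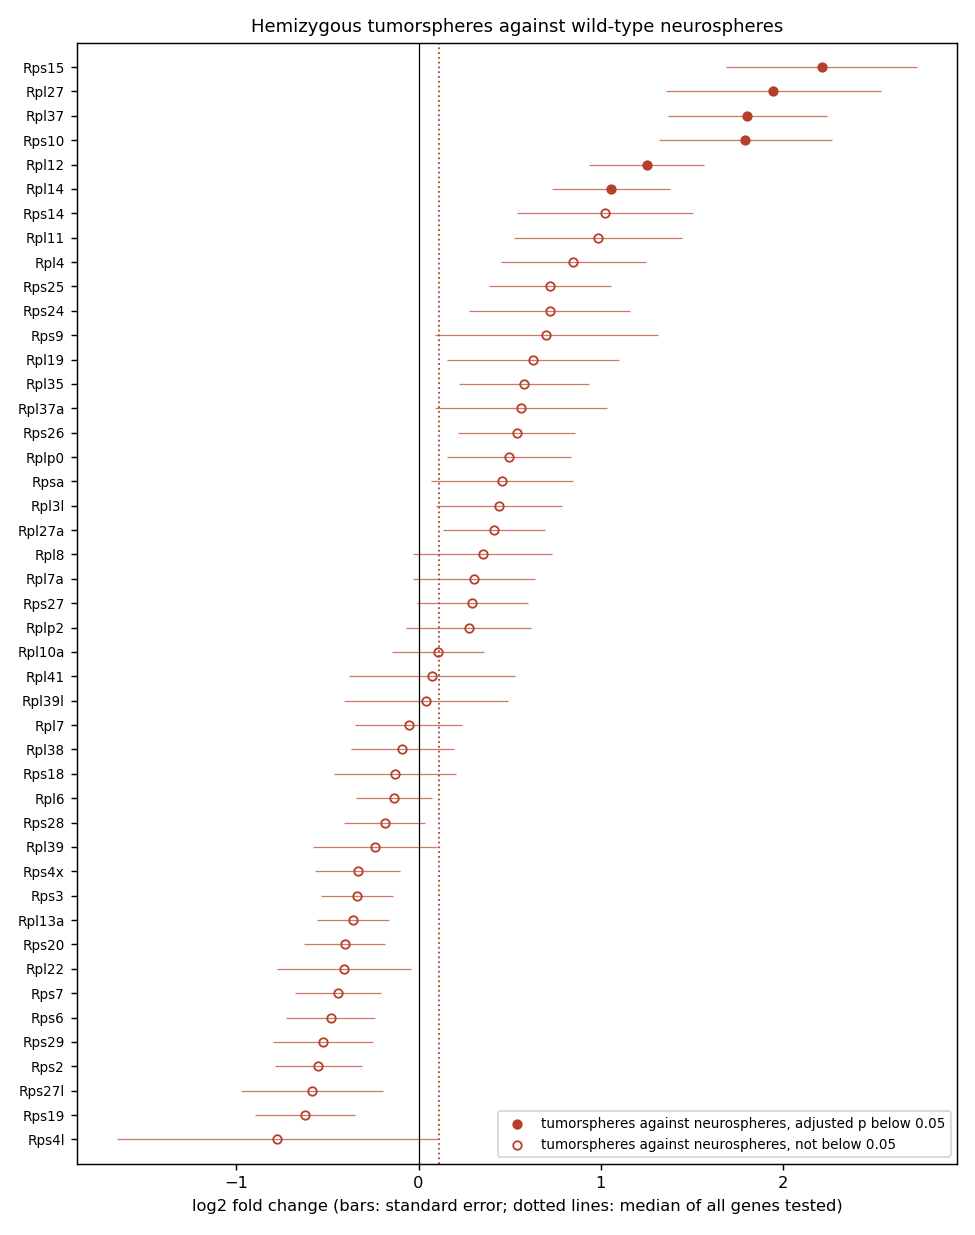
Log2 fold change of each tested gene in tumorspheres against neurospheres, with standard errors; filled points passed the adjusted threshold, and the dotted line is the median of all genes. Rps15, Rpl27, Rpl37, Rps10, Rpl12 and Rpl14 are filled, and Rps19 and Rps4l lie at the low end.

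Neurosphere 1 stood apart in its top intensities. Without it 5 genes were called: Rpl12 (adjusted p = 0.0975), Rpl14 (0.0805) and Rpl27 (0.113) were lost, and Rpl27a (0.0251) and Rps6 (0.0212) were gained. Without neurosphere 2, which stood apart in the Gapdh ratio, 11 were called: none was lost, and Rps2, Rps3, Rps7, Rps20 and Rps29 were gained (0.00631 to 0.0481). Without tumorsphere 1 or 2, 4 were called, and Rpl14 (0.0684 and 0.0636) and Rpl27 (0.0589 and 0.0643) missed the threshold. The sympathetic markers summed to 5415 and 5579 in tumorspheres, against 133 and 65.1 in neurospheres. In tumorspheres Th (3097 and 3328) and Stmn2 (1760 and 1504) made up most of that sum, while Slc6a2 (15.7 and 27.4) and Prph (3.59 and 13.2) were dim. The glial markers summed to 1046 and 1208, against 9222 and 5371. Pmp22 alone gave 1035 and 1190 of the tumorsphere sums and was lower in neurospheres, at 278 and 576. Fabp7 made up most of the neurosphere sums, at 8578 and 4615.5, against 0.347 and 6.67 in tumorspheres. The part of these cells in the result was not tested.

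Of the 76 mitochondrial ribosomal protein genes 31 rose and 3 fell in tumorspheres, with a median of 1.04. Their mean level was 8.70 and 8.73 in tumorspheres, against 7.42 on neurosphere 1 and 8.12 on neurosphere 2. Of the 14 assembly factors 5 rose and 1 (Bccip) fell. Of the 23 TOP mRNAs 3 rose (Eef2, Eif3l and Eif3k) and 4 fell (Eif3e, Vim, Hnrnpa1 and Eif2s3x), with a median of -0.16. Of the 10 regulators 4 rose, namely Mtor by 1.39, its partner Rptor by 2.04, the inhibitor Tsc2 by 2.18 and Rps6kb2, an S6 kinase, by 1.59.

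Tumorspheres were also set against the tumors of the same genotype. Rpl37 alone rose, where 5.61% of all genes rose and 6.99% fell, and 41 of 45 log2 fold changes were positive, with a median of 0.27, against 0.01 over all genes. At an unadjusted p below 0.05, 7 (15.6%) were higher, against 12.5% of all genes. Without overlap, 22 genes were higher and 1 lower in tumorspheres, where 21.9% and 20.4% of all genes were. Rpl37 read 516 and 476 in tumorspheres, against 181, 171, 133 and 174 in hemizygous tumors. The lowest tumorsphere was more than 2 times the highest tumor. The fitted log2 difference was 1.51 (SE 0.38, adjusted p = 0.0124). The call was lost without tumorsphere 1 or 2 (adjusted p = 0.12 and 0.0897), and without hemizygous tumor 4 the count was 3. All 8 macrophage markers fell in tumorspheres, with sums of 57.7 and 98.3, against 1058 to 3005 in hemizygous tumors. Of 6 fibroblast markers 5 fell, with sums of 38.0 and 43.3 in tumorspheres, against 2074 to 5875 in hemizygous tumors, and of 3 measured fat-cell markers 1 fell, with sums of 5.80 and 9.13, against 309 to 2026. The part of these cells in the result was not tested.

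In wild-type mice, neurospheres were compared with ganglia. Of the 45 genes 11 rose and none fell, where 16.8% of all genes rose and 22.4% fell, with a median of 0.23, against -0.12 over all genes. Without overlap, 11 genes were higher and none lower in neurospheres, where 17.3% and 25.1% of all genes were. Rps19 led. It read 3413 and 4148 in neurospheres, against 1595, 1134, 789 and 926 in wild-type ganglia. The lower neurosphere was more than 2 times the highest ganglion. On the log2 scale the difference was 1.80 (SE 0.24, adjusted p = 8.01e-06). Rps9 had 1.49 (SE 0.53, adjusted p = 0.0327), Rpl12 1.30 (SE 0.27, adjusted p = 0.000966) and Rpl8 1.26 (SE 0.33, adjusted p = 0.00539).

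Rps6 (1.09), Rpl22 (1.12) and Rps27l (1.06) rose as well. Rpl22 is needed for the development of T cells in mice, and read 5748 and 4756 in neurospheres, against 2542, 3694, 1351 and 2607 in wild-type ganglia, without overlap. Without neurosphere 2 the calls of Rpl12 (adjusted p = 0.0529), Rpl8 (0.127), Rps9 (0.256), Rps27l (0.126), Rplp0 (0.167), Rplp2 (0.0917) and Rpl7a (0.0968) were lost and Rpl6 and Rps2 were gained, which gave 6. Without neurosphere 1 those of Rpl22 (0.0782), Rpl7a (0.181), Rplp0 (0.0516), Rplp2 (0.0511) and Rps3 (0.3) were lost and Rpl27a was gained, which gave 7. Rps9, Rplp0 and Rpl7a were also lost without wild-type ganglion 3 or 4 (0.0575 to 0.103), and Rps3 without ganglion 1 (0.053). Without wild-type ganglion 2 the count was 17. Against ganglia 1 and 2 alone 7 rose and 6 fell, and against ganglia 3 and 4 alone 24 rose. Here too the share of all genes with each pair is not given. Of the 23 TOP mRNAs 10 rose and none fell, with a median of 0.69, led by Hnrnpa1 at 1.96, Eif4b at 1.88 and Nap1l1, a histone chaperone, at 1.84.

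The difference between spheres and tissue was then compared between transgenic and wild-type samples. The contrast was tumorspheres minus hemizygous tumors, minus the same difference of wild-type neurospheres and ganglia. It is called the genotype difference of culture below. The tissue was tumor on the transgenic side and ganglion on the wild-type side, and the labels give no cell type of origin for the spheres. Culture, genotype, kind of tissue and origin of the spheres therefore cannot be told apart in it. Of the 45 genes 2 were more positive in the transgenic samples, Rpl37 and Rps15, and 3 more negative, Rpl12, Rps19 and Rps6, where 17.8% and 14.7% of all genes were. Rps15 had 1.16 in tumorspheres against tumors, which missed the threshold, and -0.55 in neurospheres against ganglia. Its difference of 1.71 (SE 0.64, adjusted p = 0.0486) was lost without 9 of the 12 arrays (adjusted p 0.0526 to 0.122), the exceptions being hemizygous tumors 3 and 4 and wild-type ganglion 4. Rps19 had 0.24 and 1.80 for the same pairs, and Rpl12 -0.38 and 1.30. With quantile normalization the split was 1 and 5. Against wild-type ganglia 1 and 2 alone 9 were more positive and 3 more negative, and against ganglia 3 and 4 alone 1 and 11.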

How the data were processed

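Each of 20 samples was hybridised to 1 Affymetrix mouse array, from total RNA amplified in 2 cycles and labelled with biotin, per the labels' protocols. The intensity values deposited by the authors are linear, and their mean after trimming 2% at each end was close to 100 on every array, as computed from the values. How probes were summarized, with which software, and in which batches arrays were run are not given in sources used here. Precision is limited by the number of arrays.

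Of 45037 probe sets other than controls, 34945 named 1 gene, 932 several and 9160 none in the platform annotation. Each gene was read by its brightest single-gene probe set. The array medians of log2(intensity + 16) spanned 0.33, under the limit of 0.5 for another normalization, so none was applied. Genes had to exceed the 40th percentile of their array on at least 2 arrays. All 20 arrays entered 1 model with 7 group means (limma 3.58.1, R 4.3.3), two-sided, with Benjamini-Hochberg adjustment over 15132 genes and a threshold of 0.05. The model was tested on simulated data. Groups do not overlap where every array of one exceeds every array of the other.

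The genes described, the lists and the alternatives were chosen with earlier results of these data known. Named were up to 8 genes with the highest and 8 with the lowest fold change among those that passed in a main comparison (4 and 4 in the others), the 3 with the smallest p where none passed, the 3 brightest and 3 dimmest, and genes of known special roles. Genes of 37 symbols without a single-gene probe set were left out. Alternatives covered normalization, pseudocount, filter, probe set choice, arrays fitted, array weights, a replicate block, both pairs of wild-type ganglia and each array left out.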

Additional observations from a re-analysis of the deposited data

Results flagged for a closer look

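The difference between spheres and tissue was unlike in transgenic and wild-type samples for 5 of the 45 tested genes, by limma on that contrast itself. This is 11.1% of them, against 32.5% of all 15132 genes. Rpl37 had a difference of 2.03, with 1.51 in tumorspheres against hemizygous tumors and -0.52 in neurospheres against wild-type ganglia. Rps15 had 1.71, with 1.16 and -0.55 for the same pairs, and missed the threshold without any of 9 of the 12 arrays (adjusted p 0.0526 to 0.122). Rpl12 had -1.68, with -0.38 and 1.30. Rps19 had -1.55, with 0.24 and 1.80. Rps6 had -1.30, with -0.21 and 1.09. Transgene, strain background, kind of sphere and kind of tissue (tumor or ganglion) cannot be told apart here. In the groups of 4 arrays, none of 72 sets of values had an array far from the other 3 by Dixon's test. For independent sets chance flags about 1 in 20, but these sets share the same arrays. The test looks for 1 array apart from 3, so it cannot see the split of a group into 2 pairs described above.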

How the results depend on the processing

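Of 190 counts of called genes over all alternatives, 129 stayed within 1.5 times the count reported and 61 did not. Counts under alternatives are given without the share of all genes that passed under the same alternative. Of 987 values of named genes, 831 kept direction and side of the threshold, 150 kept direction but missed it, and 6 turned. With quantile normalization the count was 0 for hemizygous against homozygous tumors and 2 for homozygous tumors against homozygous ganglia, and Rps20 turned to 0.0599 in homozygous and 0.0754 in hemizygous tumors and Rps7 to 0.12 in hemizygous tumors. Median centring gave 1 for homozygous ganglia and 2 for tumorspheres against tumors. A pseudocount of 1 gave 1 for homozygous ganglia, and pseudocounts of 1 and 64 and no filter each gave 0 for hemizygous against homozygous tumors. The mean over probe sets gave 3 for tumorspheres against tumors and 10 for the genotype difference of culture. Probe sets without the suffixes of shared probes gave 5 for tumorspheres against tumors, 7 for neurospheres against ganglia and 8 for the genotype difference, and turned Rps20 in homozygous tumors to 0.16, Rps24 in Mdk KO tumors to -0.13 and Rps10 in tumorspheres against neurospheres to -0.10. Fitting only the compared arrays, with fewer arrays behind the spread, gave 9 for homozygous and 10 for hemizygous tumors against wild-type ganglia, 0 for homozygous ganglia, 10 for homozygous tumors against homozygous ganglia, 2 for tumorspheres against tumors and 3 for neurospheres against ganglia. Array weights gave 9 for hemizygous tumors, 19 for homozygous tumors against homozygous ganglia, 14 for tumorspheres against tumors and 4 for neurospheres against ganglia. Wild-type ganglia 1 and 2 alone gave 9 for homozygous tumors, 0 for homozygous ganglia and 12 for the genotype difference, and ganglia 3 and 4 alone gave 24, 29 and 26 for homozygous tumors, hemizygous tumors and homozygous ganglia, 24 for neurospheres and 12 for the genotype difference. Except where stated, the cause was not tested.

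With each array left out in turn, the count ranged from 8 to 23 for homozygous and 11 to 23 for hemizygous tumors against wild-type ganglia, 0 to 17 for homozygous ganglia, 0 to 0 for Mdk KO tumors and 0 to 1 for hemizygous against homozygous tumors. It ranged from 4 to 11 for tumorspheres against neurospheres, 1 to 4 for homozygous tumors against homozygous ganglia, 0 to 3 for tumorspheres against tumors, 6 to 17 for neurospheres against ganglia and 4 to 6 for the genotype difference. Where 1 array was left in a group, it was taken to vary like the others. With the replicate block the count was 0 for homozygous ganglia, 2 for homozygous tumors against homozygous ganglia and 5 for neurospheres against ganglia. Only 7 of 48 same-numbered pairs deviated together with r over 0.1 (-0.32 to 0.28), so the numbers were not taken to pair samples. This check cannot see deviations shared between arrays of different numbers. Hemizygous tumors 1 and 2, for example, had r of 0.23 to 0.30 with homozygous tumors 3 and 4. With homozygous tumors 1 and 2 they had r of -0.31 to -0.18.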
